A study of Homo sapiens with 16 samples.

Results

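The kinesin superfamily was taken as every protein-coding gene whose symbol begins with KIF or KIFC followed by a number and an optional letter A to C. This gave 42 genes of the 78894 features in the deposited table, spike-in controls left out. By their known roles 14 were grouped as mitotic kinesins, 17 as transport kinesins and 11 as other kinesins. The classes were set with earlier results of these data known. KIF2A, which acts at spindle poles and in neurites, was placed among the other kinesins, so the mitotic counts below leave it out. Of these, 29 passed the filter of at least 1 CPM (counts scaled to a library total of 1000000) in at least 4 of 16 libraries and were tested, 12 mitotic, 12 transport and 5 other. Since the filter keeps genes that are high in any group, counts below refer to these tested members. CENPE, a mitotic motor with a different name, fell outside the symbol rule and is described with the partner genes.

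RNA was measured in T47D, an estrogen receptor positive breast cancer line of luminal type, in 4 groups of 4 libraries. FAH knockout cells received abemaciclib at 500 nM for 3 days, control-guide cells received the same, and both genotypes were also measured under vehicle (DMSO in the sample titles). FAH encodes fumarylacetoacetate hydrolase, the last enzyme of tyrosine breakdown, and abemaciclib inhibits the cyclin-dependent kinases CDK4 and CDK6. All groups grew in the same high-glucose medium with serum, per the labels. The guide sequences, and whether the knockout population was cloned or pooled, are not stated in any source used here.

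Libraries held 9915776 to 11963094 assigned reads. FAH averaged 5.76 ± 0.744 CPM in knockout cells under abemaciclib and 23.97 ± 1.35 CPM in control cells under abemaciclib (SD, n = 4 each). Under vehicle it averaged 6.65 ± 0.323 CPM in knockout cells and 26.5 ± 1.57 CPM in control cells (SD, n = 4 each). All 8 luminal markers were at or above 1 CPM in each library. Of the 5 basal or mesenchymal markers, the keratins KRT5 and KRT14 did not pass 0.0997 CPM, and TP63 and ZEB1 did not pass 0.5985 CPM. VIM went the other way, with group means of 13.5 to 16.6 CPM. The summed luminal markers differed between groups, at 15250 to 15518 CPM in knockout cells under abemaciclib, 10778 to 11258 in control cells under abemaciclib, 12701 to 13103 in knockout cells under vehicle and 9100 to 9266 in control cells under vehicle. Keratins carried most of the difference between genotypes. KRT8 averaged 6323 CPM in knockout and 3363 CPM in control cells under abemaciclib, and 5048 CPM in knockout and 2700.2 CPM in control cells under vehicle. The means of KRT8, KRT18, KRT19 and EPCAM were above those of control cells in knockout cells under both treatments, and the means of the other 4 markers (ESR1, PGR, GATA3 and FOXA1) were below them. CPM are shares of a library, and the part of this shift in the values below was not tested. The labels do not say that libraries came from separate cultures, so p-values may measure technical spread alone. Among genes with a group mean of at least 5 CPM, the median gene's variance between libraries of a group was 0.933 to 1.33 times the variance expected from counting reads. With counting error alone the median of this ratio in groups of 4 would lie below 1, so these medians do not show a spread of counting error only. The mean of this ratio over the same genes was 1.87 to 3.88. No batch is given in the labels.

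Kinesins are motor proteins that use ATP to walk along microtubules or to take their ends apart. Mitotic kinesins build the spindle, move and align chromosomes and drive cytokinesis, and their genes are transcribed mainly late in the cell cycle. Transport kinesins carry vesicles, organelles and proteins through the cytoplasm and along cilia, and work throughout the cell cycle. CDK4 and CDK6 inhibitors hold luminal breast cancer cells before S phase by keeping the RB protein active.

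The mitotic class lost most of its RNA under abemaciclib in both genotypes. The transport class kept its mean summed level in control cells, and in knockout cells this mean was a little lower under abemaciclib. The 14 mitotic kinesins together held 122, 123, 125 and 131 CPM in the knockout libraries under abemaciclib, and 175, 176, 171 and 167 CPM in the control libraries under abemaciclib. Under vehicle their sum was 449, 439, 448 and 448 CPM in knockout libraries, and 503, 529, 525 and 504 CPM in control libraries. No library of any group overlapped with another group in this sum. The 17 transport kinesins together averaged 456 ± 15.6 CPM in knockout and 445 ± 28.9 CPM in control cells under abemaciclib, and 479 ± 5.59 CPM in knockout and 440.4 ± 8.70 CPM in control cells under vehicle (SD, n = 4 each). Of the reads of both classes, the mitotic members took 21.6 ± 0.904% in knockout cells under abemaciclib, 27.9 ± 0.952% in control cells under abemaciclib, 48.2 ± 0.322% in knockout cells under vehicle and 53.9 ± 0.492% in control cells under vehicle (SD, n = 4 each).

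Per kilobase of annotated exon (GENCODE 29), the order of the kinesins differed between treatments, and KIFC1 ranked first only in control cells under vehicle. In knockout cells under abemaciclib the highest levels were those of KIF5B (19.96 CPM per kb), KIF22 (12.7), KIF3B (10.6) and KIF1C (8.22), and under vehicle those of KIF5B (24.4 CPM per kb), KIF22 (22.8), KIFC1 (21.8) and KIF20B (10.9). In control cells under abemaciclib the highest levels were those of KIF5B (20.04 CPM per kb), KIF22 (13.4), KIF3B (9.17) and KIF1C (8.56). In control cells under vehicle they were those of KIFC1 (27.2 CPM per kb), KIF22 (25.6), KIF5B (24.3) and KIF20B (12.1). KIFC1 stood under abemaciclib at 2.57 CPM per kb in knockout cells and 4.68 CPM per kb in control cells. Read coverage along transcripts is not stated, so these length-scaled levels are approximate.

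The 13 members below the filter were low in all groups. KIF2B, a mitotic microtubule depolymerase, and KIF19, a depolymerase of motile cilia, had 0 reads in all 16 libraries, and 3 reads would have been 0.251 to 0.303 CPM. KIF4B, an intronless near-copy of KIF4A, did not pass 0.251 CPM, and reads shared between these genes cannot be assigned with certainty. The neuronal conventional kinesin heavy chains were low, with KIF5A at 0.182 to 1.02 CPM and KIF5C at 0.167 to 0.739 CPM. KIF1A, an axonal carrier of synaptic vesicle precursors, lay between 0.0896 and 0.385 CPM, and KIF17, a dendritic and ciliary motor, did not pass 0.179 CPM. The other members were KIF21B, KIF12, KIF25, KIF26A, KIF26B and KIF6, with no value above 1.25 CPM.

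Abemaciclib lowered all 12 tested mitotic kinesins in both genotypes. In knockout cells 12 of 12 were called lower and in control cells 12 of 12, against 27.4% and 31.1% of all 16218 tested genes called lower in these comparisons. Calls were made at an adjusted p under 0.05 by limma with Benjamini-Hochberg adjustment, and each log2 fold change was taken from log2(CPM + 1), a scale that shrinks the change of weakly expressed genes. The median log2 fold change of the mitotic members was -2.38 in knockout cells and -2.02 in control cells, beside -0.07 and -0.05 for all tested genes. KIF2A, a spindle pole motor grouped with the other kinesins, was lowered less, by -0.26 in knockout cells and -0.28 in control cells. Abemaciclib and vehicle libraries did not overlap for any of the 12 in either genotype, while 25.5% of all tested genes in knockout cells and 26.7% in control cells were lower without overlap. MKI67, a proliferation marker, moved with these genes, averaging 5.13 CPM in knockout and 12.1 CPM in control cells under abemaciclib and 84.2 CPM in knockout and 89.6 CPM in control cells under vehicle. In bulk RNA, fewer dividing cells and less RNA per dividing cell cannot be told apart.

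KIF20A, which moves the chromosomal passenger complex to the central spindle, changed most. It had 1.55, 0.974, 1.44 and 1.91 CPM in knockout libraries under abemaciclib, against 36.2, 37.2, 36.6 and 37.1 CPM under vehicle. In control cells it had 3.55, 2.93, 3.99 and 3.47 CPM under abemaciclib, against 40.3, 42.2, 36.6 and 37.1 CPM under vehicle. Every abemaciclib library was far below every vehicle library, and knockout and control libraries separated under abemaciclib and overlapped under vehicle. The level under abemaciclib was 3.99% of that under vehicle in knockout cells and 8.93% in control cells. The log2 fold change was -3.95 in knockout cells (SE 0.0943, limma adjusted p = 4.77e-27) and -3.16 in control cells (SE 0.0943, limma adjusted p = 2.94e-24).

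KIF2C, the depolymerase that corrects faulty attachments at centromeres, had 1.92, 1.33, 1.27 and 1.45 CPM in knockout libraries under abemaciclib, against 18.1, 21.6, 17.9 and 19.0 CPM under vehicle. In control cells it had 3.64, 3.07, 3.48 and 3.66 CPM under abemaciclib, against 23.5, 25.5, 28.0 and 22.7 CPM under vehicle. The 4 groups of KIF2C values did not overlap. Its log2 fold change under abemaciclib was -3.02 in knockout cells (SE 0.0960, limma adjusted p = 1.72e-23) and -2.54 in control cells (SE 0.0960, limma adjusted p = 2.49e-21). KIFC1, a minus-end-directed motor that focuses spindle poles and clusters extra centrosomes, had 8.28, 8.60, 8.78 and 8.78 CPM in knockout libraries under abemaciclib, against 71.0, 75.0, 74.0 and 71.5 CPM under vehicle. Control libraries had 15.5, 17.0, 14.4 and 15.7 CPM under abemaciclib, against 85.7, 95.8, 88.4 and 93.8 CPM under vehicle. Again the 4 groups were apart. Its log2 fold change was -2.94 in knockout cells (SE 0.0546, limma adjusted p = 3.11e-30) and -2.46 in control cells (SE 0.0546, limma adjusted p = 5.6e-28). KIFC1 gave whole read numbers in only 6 libraries, so part of its reads was shared between features.

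The other mitotic members were lowered to different degrees. KIF4A, a chromosome-bound motor that also shortens the central spindle, stood under abemaciclib at 8.61% of its vehicle mean in knockout cells and 17.0% in control cells. KIF18B, a motor of astral microtubule plus ends, stood at 9.83% in knockout cells and 15.6% in control cells. KIF14, which binds PRC1 and citron kinase at the midbody, stood at 12.6% in knockout cells and 21.1% in control cells, and KIF15, which helps to hold spindle poles apart, at 17.3% in knockout cells and 27.4% in control cells. KIF11, the main motor that separates the poles, stood at 18.1% in knockout cells and 21.8% in control cells, and KIF23, a subunit of centralspindlin, at 22.4% in knockout cells and 28.6% in control cells. KIF18A, which restrains chromosome movement at the metaphase plate, kept 30.0% in knockout cells and 40.2% in control cells. The least lowered members were KIF20B, a motor of late cytokinesis, at 43.9% in knockout and 59.8% in control cells, and KIF22, a chromosome arm motor, at 55.6% in knockout and 52.5% in control cells. KIF20B and KIF22 also gave whole read numbers in only 6 libraries each, and 13.01% of KIF22 exon bases overlap an opposite-strand gene. The smallest log2 fold changes among the 12 were those of KIF22 in knockout cells (-0.84) and KIF20B in control cells (-0.73). The part of read sharing in these smaller changes was not tested.

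**Figure D1:**
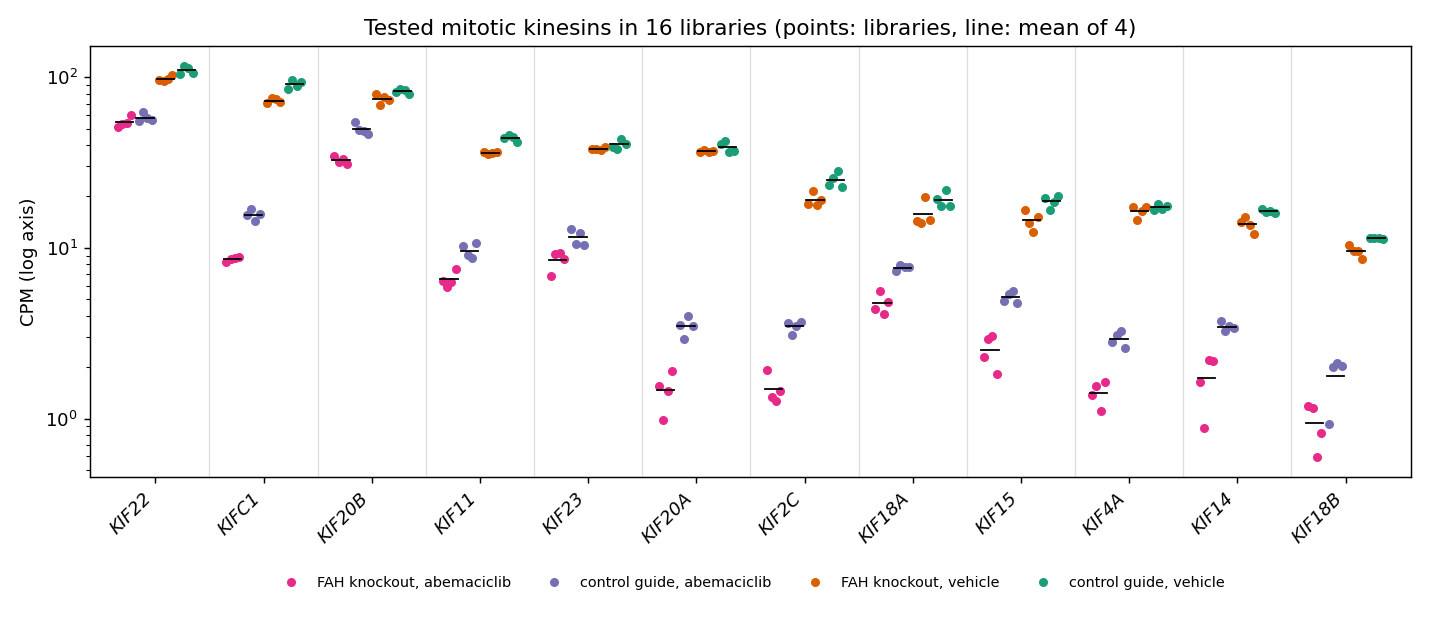
CPM on a log axis of the 12 tested mitotic kinesins in 16 libraries, with points for libraries and a line for each mean of 4. Within each gene the groups run FAH knockout under abemaciclib, control guide under abemaciclib, FAH knockout under vehicle and control guide under vehicle, and all abemaciclib points lie below all vehicle points of the same genotype.

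The mitotic and transport members also differed in short promoter motifs, which the choice of members did not use. The motif TTTGAA (the cell cycle genes homology region, bound by MuvB complexes in cell cycle promoters) and the motif CCAAT (the box bound by NF-Y) were searched on both strands of RefSeq windows from 250 bases before to 50 bases after each start site in GRCh38.p14. Of 42 members 34 had a window. KIFC3, KIF21B, KIF19, KIF27, KIF13B, KIFC2, KIF5A and KIF26B had none. Among the 12 tested mitotic kinesins, TTTGAA was in the windows of 9, CCAAT in those of 10 and both in those of 8. Among the 9 tested transport kinesins with a window, TTTGAA was found in 1 (KIF5B), CCAAT in 3 and both in 1. Of all 35116 windows, 15.2% held TTTGAA, 34.6% held CCAAT and 5.90% held both. These shares are of single windows, while a kinesin was counted if any of its windows held the motif (KIF22 had 2 windows and KIF1B 3). Of the 4 tested other kinesins with a window, none held TTTGAA and 1, KIF24, held CCAAT.

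KIF20A and KIF2C, the mitotic members with the largest changes under abemaciclib in both genotypes, held no TTTGAA. After their windows had been read, a version of the motif with A in place of G, TTTAAA, was searched as well. It was present in windows of 4 of the 12 tested mitotic kinesins (KIF20A, KIF2C, KIF14 and KIF23) and 1 of the 9 transport kinesins (KIF16B). Of all windows, 12.2% held it. Since TTTAAA was chosen from these windows, its count is a description only. In KIF20A TTTAAA began 41 bases before the start site, with CCAAT boxes 94 and 67 bases before the start site. KIF22 held CCAAT alone, and KIF15 held TTTGAA alone. A match is a description, not a site or a cause, and a window without a match says nothing of the factor.

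The windows below were chosen to set the mitotic genes with the largest changes beside transport genes that were lowered a little (KIF5B) or raised (KIF1C) by abemaciclib. They lie at chr5:138178862-138179161 (KIF20A, plus strand), chr1:44739587-44739886 (KIF2C, plus strand), chr6:33391573-33391872 (KIFC1, plus strand), chrX:70289854-70290153 (KIF4A, plus strand), chr10:32056376-32056675 (KIF5B, minus strand) and chr17:4997700-4997999 (KIF1C, plus strand) in GRCh38.p14. Each reads from upstream into the transcribed part, 5′ to 3′. Capitals mark the 3 motifs. On the opposite strand TTTGAA reads as TTCAAA, the CCAAT box then reads as ATTGG, and TTTAAA is its own reverse complement.
KIF20A: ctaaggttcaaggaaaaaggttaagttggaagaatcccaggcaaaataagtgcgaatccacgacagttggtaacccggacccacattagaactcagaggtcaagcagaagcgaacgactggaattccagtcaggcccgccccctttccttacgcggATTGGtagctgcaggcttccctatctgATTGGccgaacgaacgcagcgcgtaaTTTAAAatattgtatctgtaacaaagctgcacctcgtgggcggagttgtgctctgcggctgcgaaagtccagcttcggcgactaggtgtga
KIF2C: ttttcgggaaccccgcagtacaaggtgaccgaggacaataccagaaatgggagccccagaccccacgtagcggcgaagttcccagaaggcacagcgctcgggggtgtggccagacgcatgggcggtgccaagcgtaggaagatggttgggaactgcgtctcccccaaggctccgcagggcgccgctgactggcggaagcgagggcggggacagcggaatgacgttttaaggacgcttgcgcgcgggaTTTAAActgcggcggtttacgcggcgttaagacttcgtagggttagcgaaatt
KIFC1: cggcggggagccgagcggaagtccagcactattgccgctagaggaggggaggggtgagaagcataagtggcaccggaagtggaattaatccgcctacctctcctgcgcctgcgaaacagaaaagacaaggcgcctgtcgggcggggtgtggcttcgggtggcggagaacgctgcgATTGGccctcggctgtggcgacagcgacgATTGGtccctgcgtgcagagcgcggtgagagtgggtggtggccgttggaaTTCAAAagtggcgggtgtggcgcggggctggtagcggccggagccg
KIF4A: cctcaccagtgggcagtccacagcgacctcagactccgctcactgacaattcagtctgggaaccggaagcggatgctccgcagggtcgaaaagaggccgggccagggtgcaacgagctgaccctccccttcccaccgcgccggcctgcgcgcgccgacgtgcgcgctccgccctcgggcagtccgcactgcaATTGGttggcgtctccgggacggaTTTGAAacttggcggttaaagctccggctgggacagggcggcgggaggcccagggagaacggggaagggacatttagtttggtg
KIF5B: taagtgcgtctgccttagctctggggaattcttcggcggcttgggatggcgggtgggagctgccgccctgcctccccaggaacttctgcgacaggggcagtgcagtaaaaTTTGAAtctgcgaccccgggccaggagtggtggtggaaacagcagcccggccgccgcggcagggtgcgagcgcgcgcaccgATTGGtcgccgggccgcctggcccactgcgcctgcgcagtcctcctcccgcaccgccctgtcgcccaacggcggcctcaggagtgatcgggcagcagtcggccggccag
KIF1C: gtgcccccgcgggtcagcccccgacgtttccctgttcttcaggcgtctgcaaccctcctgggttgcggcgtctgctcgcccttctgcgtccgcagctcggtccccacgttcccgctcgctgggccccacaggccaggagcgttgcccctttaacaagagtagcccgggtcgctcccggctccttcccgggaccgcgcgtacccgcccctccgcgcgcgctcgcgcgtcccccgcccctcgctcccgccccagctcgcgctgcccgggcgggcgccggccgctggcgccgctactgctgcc

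In these sequences the CCAAT boxes all read as ATTGG, that is, on the opposite strand. In KIFC1 they began 75 and 46 bases before the start site, with TTCAAA 4 bases after it. In KIF4A the box began 58 bases and TTTGAA 34 bases before the start site. In KIF5B the order was reversed, with TTTGAA 140 bases and the box 59 bases before the start site. KIF1C held none of the 3 motifs.

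**Figure D2:**
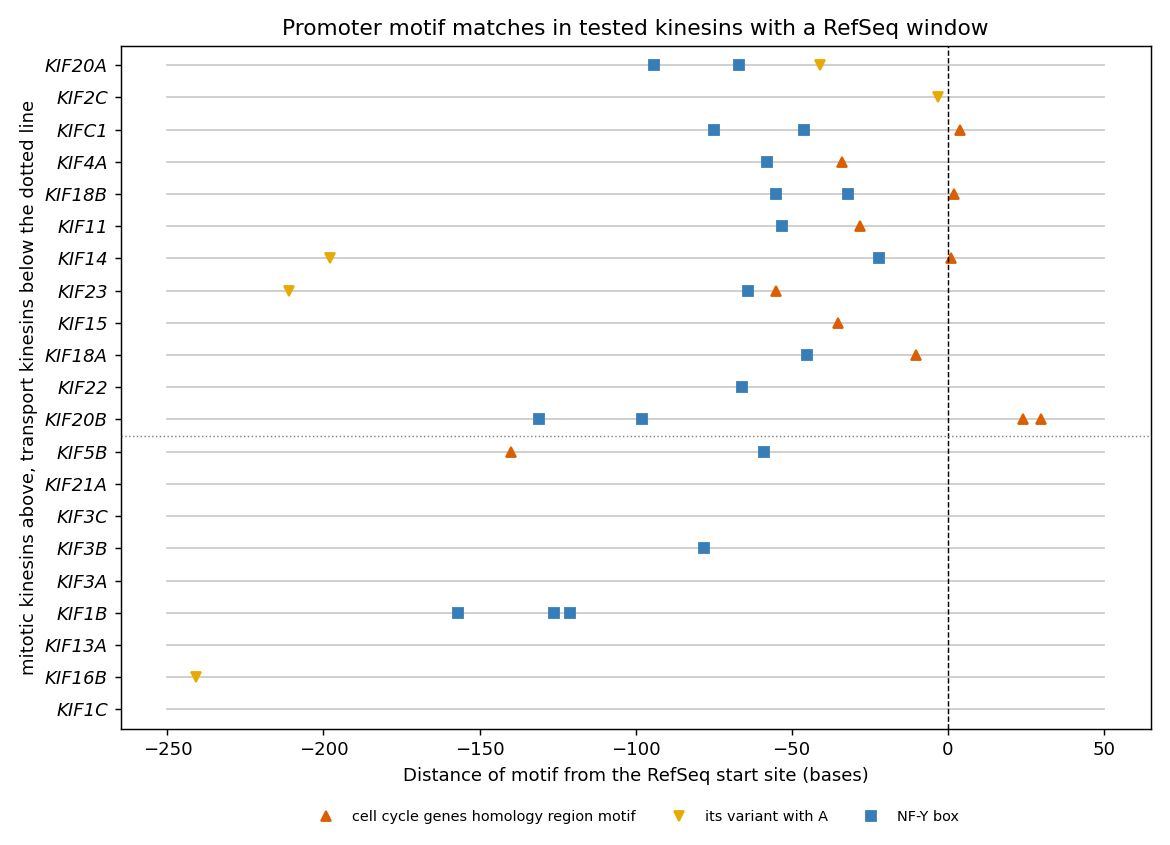
Positions of the 3 motifs in promoter windows of 12 tested mitotic kinesins (above the dotted line) and 9 tested transport kinesins (below it), as distance in bases from the RefSeq start site. Of the mitotic kinesins, 9 hold the cell cycle genes homology region motif and 10 the NF-Y box in a window, against 1 and 3 of the transport kinesins.

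Transport kinesins changed little under abemaciclib, in both directions. In knockout cells 2 of 12 were called higher and 2 lower, against 11% of all tested genes higher and 27.4% lower. In control cells 6 of 12 were called higher and 1 lower, against 19.6% of all tested genes higher and 31.1% lower. Their median log2 fold change was -0.02 in knockout cells and 0.11 in control cells. None changed by as much as the least lowered member grouped as mitotic, the range being -0.29 to 0.20 in knockout cells and -0.28 to 0.45 in control cells. Groups without overlap numbered 3 higher and 1 lower in knockout cells, beside 10.4% and 25.5% of all tested genes. In control cells they numbered 3 higher and 1 lower, beside 16.1% and 26.7% of all tested genes.

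KIF1C, a motor of long-range vesicle transport, rose most in control cells. It had 65.7, 77.5, 67.4 and 71.5 CPM in knockout libraries under abemaciclib, against 63.1, 61.5, 63.3 and 63.7 CPM under vehicle. Control libraries had 78.6, 77.7, 71.3 and 66.0 CPM under abemaciclib, against 55.2, 49.1, 55.9 and 53.8 CPM under vehicle. In both genotypes every abemaciclib library was above every vehicle library. The log2 fold change was 0.16 in knockout cells (SE 0.0537, limma adjusted p = 0.0173) and 0.45 in control cells (SE 0.0537, limma adjusted p = 1.36e-08). Without knockout abemaciclib replicate 2 the change of KIF1C in knockout cells was 0.11, with a limma adjusted p of 0.109, and the call was lost, as it also was at 0.16 with no filter on low values (limma adjusted p = 0.0942) or no trend (limma adjusted p = 0.0642). KIF1C gave whole read numbers in only 5 libraries.

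KIF13B, a carrier of membrane proteins to the cell periphery, had 14.1, 13.6, 11.2 and 11.8 CPM in control libraries under abemaciclib, against 10.3, 11.01, 8.16 and 10.1 CPM under vehicle. The groups did not overlap (log2 fold change 0.33, SE 0.0996, limma adjusted p = 0.0057). In knockout cells KIF13B had 8.78, 7.70, 7.73 and 9.08 CPM under abemaciclib, against 8.86, 6.28, 8.42 and 7.76 CPM under vehicle. These groups overlapped (log2 fold change 0.08, limma adjusted p = 0.539), and the interaction of KIF13B was not called (-0.25, limma adjusted p = 0.3). KIF16B, which carries early endosomes, had 22.0, 19.1, 18.5 and 16.6 CPM in control libraries under abemaciclib, against 14.6, 13.9, 16.9 and 15.5 CPM under vehicle. The lowest abemaciclib library lay below the highest vehicle library, and the change of 0.30 passed the test (SE 0.0768, limma adjusted p = 0.00126). In knockout cells KIF16B had 16.2, 16.03, 16.4 and 15.6 CPM under abemaciclib, against 16.6, 14.8, 17.6 and 16.8 CPM under vehicle, which overlapped (log2 fold change -0.03, limma adjusted p = 0.794).

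KIFC2, a minus-end-directed motor described in mouse neurons, rose in both genotypes. It had 34.5, 32.1, 31.9 and 33.2 CPM in knockout libraries under abemaciclib, against 27.8, 30.4, 27.8 and 27.8 CPM under vehicle. In control libraries the values were 22.5, 25.2, 24.5 and 28.2 CPM under abemaciclib, against 19.1, 21.2, 21.9 and 22.2 CPM under vehicle. In both genotypes all abemaciclib libraries lay above all vehicle libraries. Its log2 fold change was 0.20 in knockout cells (SE 0.0632, limma adjusted p = 0.0101) and 0.24 in control cells (SE 0.0632, limma adjusted p = 0.00182). Of KIFC2 exon bases, 17.8% overlap FOXH1 on the opposite strand, and without a stated strand setting their reads cannot be told apart. KIF13A, a motor of recycling endosomes, and KIF1B, a carrier of mitochondria and vesicle precursors, rose in control cells by 0.23 (limma adjusted p = 0.00885) and 0.20 (limma adjusted p = 0.013). Without control abemaciclib replicate 1, the log2 fold change of KIF13A was 0.15 (limma adjusted p = 0.0696) and that of KIF1B 0.14 (limma adjusted p = 0.0736), and both calls were lost.

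KIF5B, the ubiquitous heavy chain of conventional kinesin, was the transport member lowered in both genotypes. It had 109, 127, 118 and 116 CPM in knockout libraries under abemaciclib, against 144, 143, 150.5 and 136 CPM under vehicle. Control libraries had 129.6, 113, 114 and 115 CPM under abemaciclib, against 142, 146, 143 and 142 CPM under vehicle. All abemaciclib libraries lay below all vehicle libraries of their genotype. The log2 fold change was -0.29 in knockout cells (SE 0.0441, limma adjusted p = 2.31e-06) and -0.28 in control cells (SE 0.0441, limma adjusted p = 2.12e-06). KIF21A, a motor of the cell cortex that slows microtubule growth, had 61.5, 61.6, 51.2 and 50.4 CPM in knockout libraries under abemaciclib, against 66.7, 63.3, 60.6 and 64.5 CPM under vehicle. In control libraries the values were 64.4, 63.8, 56.8 and 53.0 CPM under abemaciclib, against 61.3, 67.5, 69.0 and 62.6 CPM under vehicle. The groups overlapped in both genotypes, and the change of -0.19 was called in knockout cells (SE 0.0624, limma adjusted p = 0.0172) while that of -0.13 in control cells was not (limma adjusted p = 0.0781). The interaction of KIF21A was not called (-0.05, limma adjusted p = 0.776). The KIF21A call in knockout cells was lost without knockout vehicle replicate 1, knockout abemaciclib replicate 3 or knockout abemaciclib replicate 4, with changes of -0.16 to -0.14 and limma adjusted p of 0.0582 to 0.101. It was also lost with no filter or no trend, and after median-of-ratios rescaling, at -0.10 with a limma adjusted p of 0.195, and quantile normalization, at -0.10 with a limma adjusted p of 0.178. In control cells KIF21A was called with the replicate block (limma adjusted p = 0.0475) and without control abemaciclib replicate 1 or 2, at -0.17 with limma adjusted p of 0.0255 to 0.0395.

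**Figure D3:**
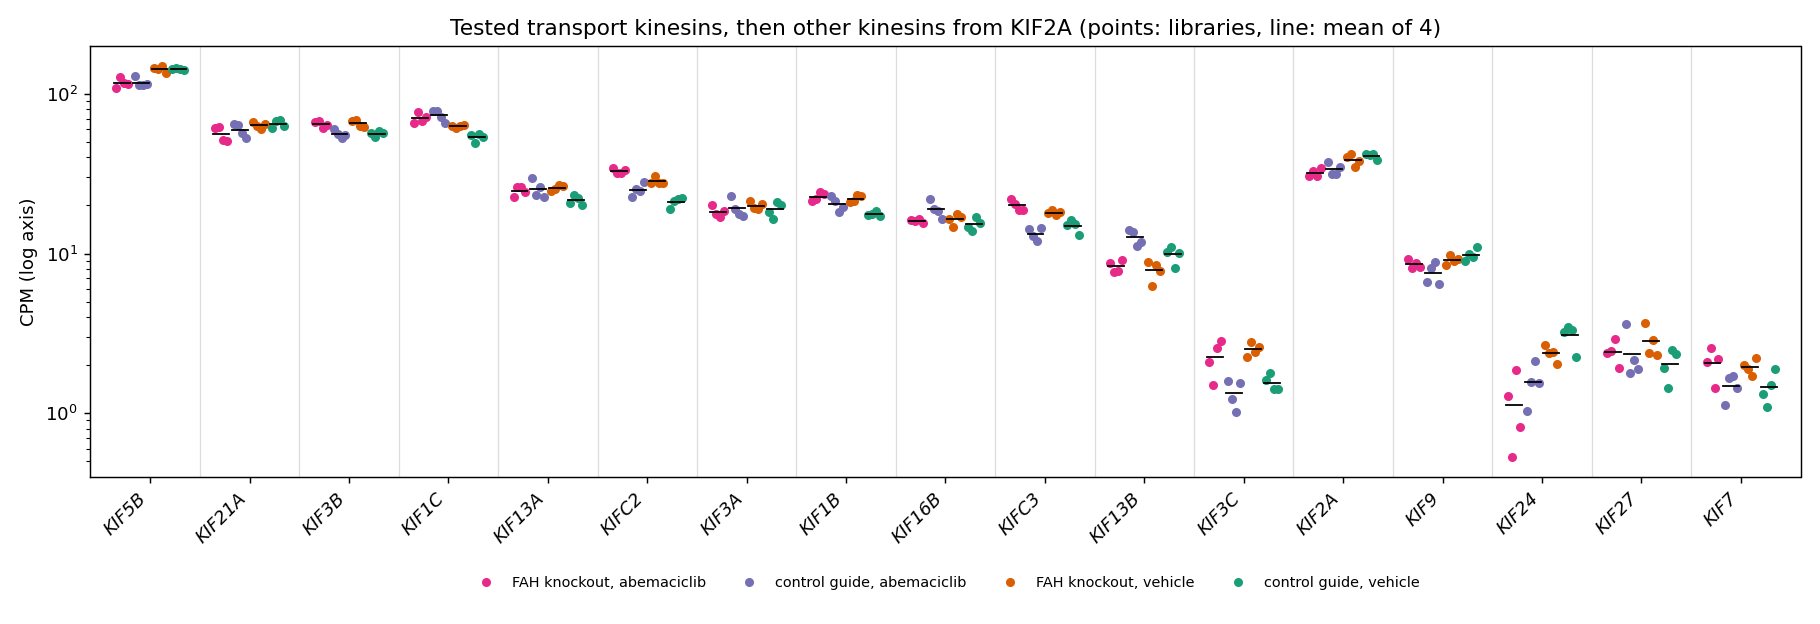
CPM on a log axis of the 12 tested transport kinesins (left of KIF2A) and the 5 tested other kinesins (KIF2A onwards) in 16 libraries, with points for libraries and a line for each mean of 4. Within each gene the groups run FAH knockout under abemaciclib, control guide under abemaciclib, FAH knockout under vehicle and control guide under vehicle, and most groups overlap.

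FAH knockout lowered mitotic kinesins under both treatments, and limma gave 0 higher even at an unadjusted p under 0.05, which 24.7% of all tested genes passed as higher under abemaciclib and 29.5% under vehicle. Under abemaciclib 11 of 12 were called lower in knockout cells, against 11.3% of all tested genes, with a median log2 fold change of -0.66 beside 0.04 for all tested genes. Under vehicle 7 of 12 were called lower in knockout cells, against 13.1% of all tested genes, with a median of -0.24 beside 0.06. KIF2A, grouped with the other kinesins, was not called, at -0.07 under abemaciclib and -0.08 under vehicle. Knockout libraries lay below all control libraries for 10 members under abemaciclib and 8 under vehicle, beside 10.1% and 12.7% of all tested genes. MKI67 was lower in knockout cells under abemaciclib (log2 fold change -1.09, limma adjusted p = 1.21e-16) and was not called under vehicle (-0.09, limma adjusted p = 0.235). The part of this difference in the kinesin values was not tested.

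Under abemaciclib the knockout means of KIF20A, KIF2C, KIF4A, KIF15 and KIF14 were 42.2%, 43.1%, 48.2%, 49.1% and 50.01% of the control means. KIF20A differed by -0.87 (SE 0.0943, limma adjusted p = 6.21e-09), and KIF2C by -0.84 (SE 0.0960, limma adjusted p = 1.61e-08). KIF15 had 2.29, 2.92, 3.06 and 1.82 CPM in knockout libraries under abemaciclib, against 4.86, 5.34, 5.61 and 4.72 CPM in control libraries. The groups did not overlap (log2 fold change -0.81, SE 0.105, limma adjusted p = 1.92e-07). KIFC1 stood at 55.0% of control, a difference of -0.79 (SE 0.0546, limma adjusted p = 1.41e-13). KIF22 was the tested mitotic kinesin not called under abemaciclib, with 51.4, 53.2, 53.8 and 60.0 CPM in knockout libraries, against 55.2, 62.8, 57.5 and 56.0 CPM in control libraries. Its groups overlapped (log2 fold change -0.08, SE 0.0494, limma adjusted p = 0.213), and it was called after median-of-ratios rescaling (-0.13, limma adjusted p = 0.0478) and after quantile normalization (-0.13, limma adjusted p = 0.041). KIF18B was called lower (log2 fold change -0.50, limma adjusted p = 0.00271) although control abemaciclib replicate 1, at 0.934 CPM, lay within the range of knockout libraries.

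Under vehicle the differences of mitotic kinesins were smaller. KIF2C differed by -0.36 (SE 0.0960, limma adjusted p = 0.00312) and KIFC1 by -0.31 (SE 0.0546, limma adjusted p = 2.16e-05), with no overlap in either. KIF15 had 16.6, 14.1, 12.4 and 15.1 CPM in knockout libraries under vehicle, against 19.6, 16.8, 18.5 and 20.1 CPM in control libraries. The highest knockout library was just below the lowest control library (log2 fold change -0.35, SE 0.105, limma adjusted p = 0.00826). KIF11, at 81.8% of control, KIF22, at 89.1%, KIF20B, at 89.9%, and KIF18A, at 82.6%, were also called lower. The KIF18A call (-0.27, limma adjusted p = 0.03) was lost without knockout vehicle replicate 1, 2 or 4 or control vehicle replicate 1 or 3, with changes of -0.26 to -0.21 and limma adjusted p of 0.063 to 0.131. The KIF20B call (-0.15, limma adjusted p = 0.0173) was lost without knockout vehicle replicate 2, at -0.12 with a limma adjusted p of 0.0955. With no filter on low values the calls of KIF18A (limma adjusted p = 0.118) and KIF20B (limma adjusted p = 0.0674) were also lost, and that of KIF18A with no trend (limma adjusted p = 0.0567). KIF20A, KIF23 and KIF4A were not called, at -0.08, -0.08 and -0.07. KIF14 and KIF18B were not called either, at -0.24 (limma adjusted p = 0.115) and -0.23 (limma adjusted p = 0.154), although knockout libraries lay below control libraries in both. Without knockout abemaciclib replicate 2, which enters the fit through the shared spread, KIF14 was called at the same -0.24 with a limma adjusted p of 0.042. KIF14 and KIF18B were both called with a pseudocount of 5 (limma adjusted p = 0.0212 for KIF14 and 0.0257 for KIF18B) and in a fit of only the groups compared (limma adjusted p = 0.0105 for KIF14 and 0.0214 for KIF18B), and KIF14 also after either rescaling (limma adjusted p of 0.0373 to 0.0445).

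Transport kinesins tended to the opposite side under vehicle. In knockout cells 7 of 12 were called higher and 1 lower, against 24.6% of all tested genes called higher and 13.1% lower, with a median log2 fold change of 0.22. Under abemaciclib 4 were called higher and 2 lower in knockout cells, against 18.6% and 11.3% of all tested genes, with a median of -0.02. Knockout libraries lay above all control libraries for 7 members under vehicle, beside 22.2% of all tested genes, and below them for 0, beside 12.7%. Under abemaciclib they lay above for 3 and below for 2, beside 16.5% and 10.1% of all tested genes.

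KIF3C, KIFC2, KIFC3 and KIF3B were called higher in knockout cells under both treatments. KIF3C, a partner of KIF3A in heterotrimeric kinesin, had 2.103, 1.51, 2.55 and 2.81 CPM in knockout libraries under abemaciclib, against 1.59, 1.23, 1.02 and 1.54 CPM in control libraries. Under vehicle it had 2.26, 2.79, 2.42 and 2.59 CPM in knockout libraries, against 1.61, 1.79, 1.41 and 1.41 CPM in control libraries. The groups overlapped under abemaciclib by 1 knockout library and were apart under vehicle. The log2 fold change was 0.46 under abemaciclib (SE 0.131, limma adjusted p = 0.00719) and 0.46 under vehicle (SE 0.131, limma adjusted p = 0.0054), at levels near the filter of 1 CPM.

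KIFC3, a minus-end-directed motor of apical transport and cell junctions, had 21.9, 20.5, 18.9 and 18.7 CPM in knockout libraries under abemaciclib, against 14.3, 12.8, 11.9 and 14.4 CPM in control libraries. Under vehicle it had 18.0, 18.7, 17.4 and 18.1 CPM in knockout libraries, against 15.1, 16.3, 15.3 and 13.1 CPM in control libraries. The groups were apart under both treatments, with a log2 fold change of 0.55 under abemaciclib (SE 0.0745, limma adjusted p = 4.59e-07) and 0.26 under vehicle (SE 0.0745, limma adjusted p = 0.00624). KIFC2 differed by 0.38 under abemaciclib (SE 0.0632, limma adjusted p = 1.43e-05) and by 0.42 under vehicle (SE 0.0632, limma adjusted p = 2.41e-06), without overlap in either. KIF3B, the motor that pairs with KIF3A in cilia, averaged 64.6 ± 2.79 CPM in knockout and 56.0 ± 3.25 CPM in control cells under abemaciclib, and 65.4 ± 2.99 CPM in knockout and 56.3 ± 1.82 CPM in control cells under vehicle (SD, n = 4 each). KIF3A, their common partner, was not called under either treatment, at -0.06 under abemaciclib and 0.08 under vehicle. KIF1B (0.30), KIF13A (0.25) and KIF1C (0.23) were called higher in knockout cells under vehicle and not under abemaciclib, where their values were 0.14, -0.03 and -0.06 (the interaction was not called for KIF1B, at -0.16 with a limma adjusted p of 0.322, nor for KIF13A, and was called for KIF1C, as given with the interaction). Without control abemaciclib replicate 1, KIF1B was called under abemaciclib as well, at 0.20 with a limma adjusted p of 0.0261.

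KIF13B was called lower in knockout cells under both treatments. It differed by -0.55 under abemaciclib, with no overlap (SE 0.0996, limma adjusted p = 5.14e-05), and by -0.30 under vehicle, with overlap (SE 0.0996, limma adjusted p = 0.0153). The vehicle call of KIF13B was lost without knockout vehicle replicate 2 or control vehicle replicate 2, with changes of -0.25 to -0.21 and limma adjusted p of 0.0641 to 0.0983, and with no filter (limma adjusted p = 0.0684). KIF16B was called lower under abemaciclib (log2 fold change -0.23, SE 0.0768, limma adjusted p = 0.0232), with all knockout libraries just below all control libraries. Without knockout abemaciclib replicate 4 or control abemaciclib replicate 1 that KIF16B call was lost, at -0.21 to -0.16 with limma adjusted p of 0.0571 to 0.121, as it was with no filter (limma adjusted p = 0.079). KIF5B had near-equal means in both genotypes, with a log2 fold change of -0.01 under abemaciclib (SE 0.0441) and 0.00 under vehicle (SE 0.0441).

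**Figure D4:**
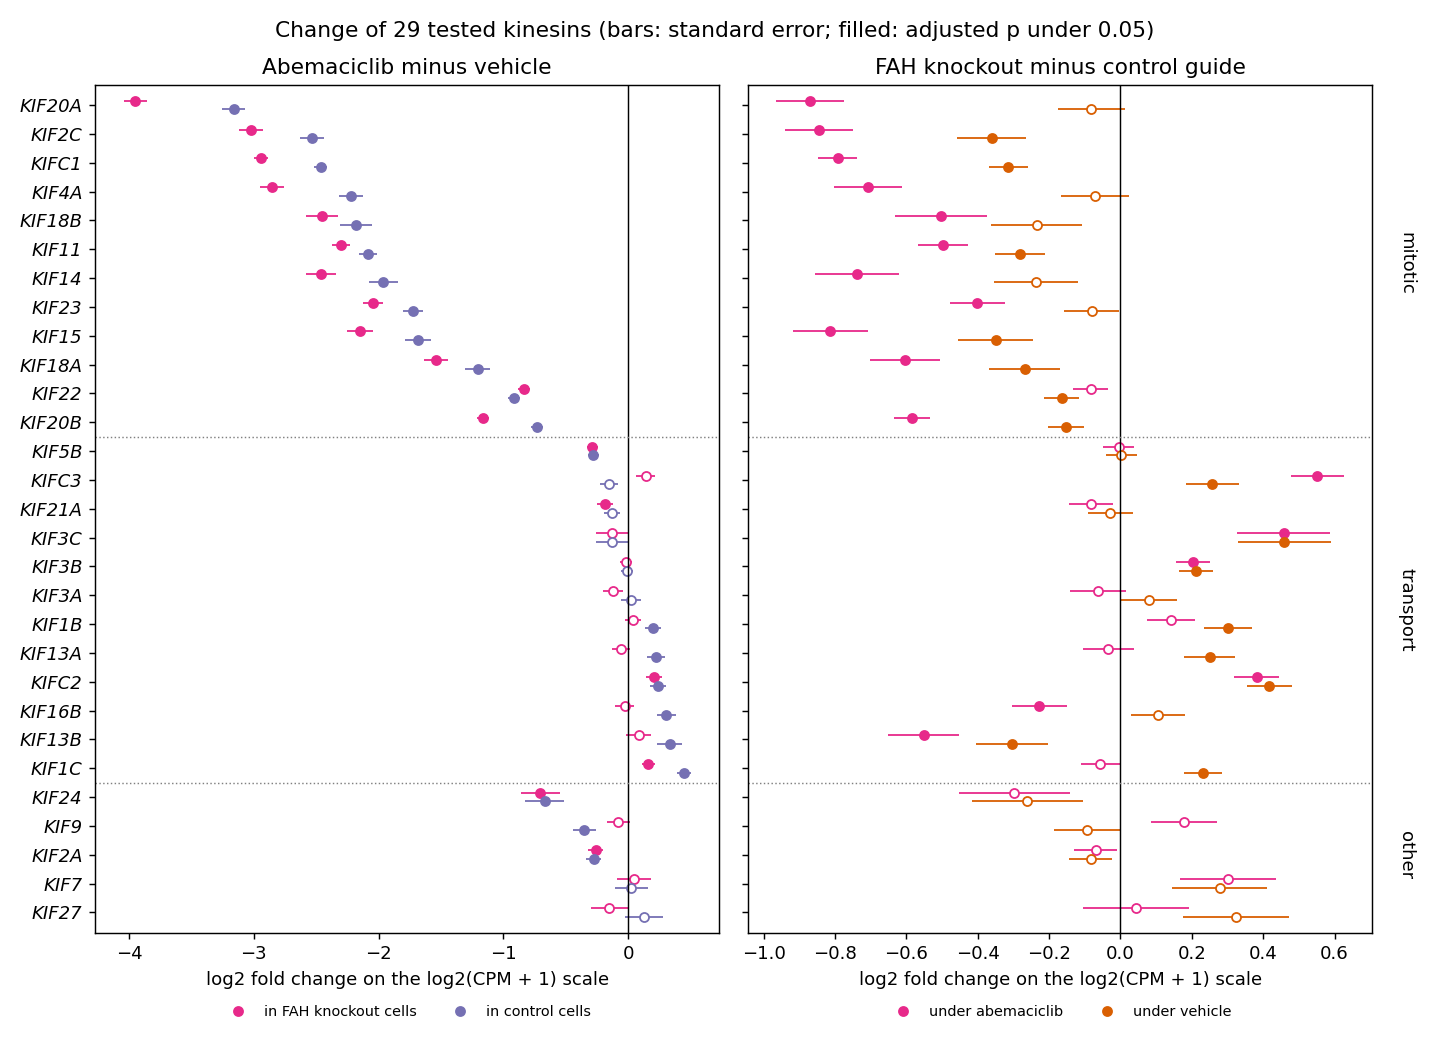
Log2 fold changes on the log2(CPM + 1) scale of 29 tested kinesins, abemaciclib minus vehicle on the left and FAH knockout minus control guide on the right, with standard errors as bars and filled points for adjusted p under 0.05. All 12 mitotic members lie left of 0 in both panels, and transport members lie within -0.29 to 0.45 on the left and on both sides of 0 on the right.

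The interaction term compared the response to abemaciclib between genotypes, and it was called for 7 mitotic and 2 transport kinesins, all lower in knockout cells than the sum of the separate changes. The share of all tested genes called lower was 6.16% and called higher 4.68%. The median log2 interaction was -0.45 for mitotic members and -0.10 for transport members, beside -0.03 for all tested genes. KIF20A had the largest, at -0.79 (SE 0.133, limma adjusted p = 8.48e-05), followed by KIF4A at -0.64 (SE 0.135, limma adjusted p = 0.00137). Over 24 refits, with other settings or 1 library left out, the KIF20A value ran from -1.14 to -0.32. Its call was kept in each (highest limma adjusted p = 0.0125). KIFC1 had -0.48 (SE 0.0771, limma adjusted p = 4.4e-05) and KIF20B -0.43 (SE 0.0722, limma adjusted p = 7.38e-05). KIF2C had -0.48 (SE 0.136, limma adjusted p = 0.0166). KIF22 was the exception in sign among tested mitotic members, at 0.08 (SE 0.0698, limma adjusted p = 0.537). For KIF18B, called lower in knockout cells under abemaciclib and not under vehicle, the interaction was not called (-0.27, limma adjusted p = 0.404).

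KIF4A had 1.37, 1.55, 1.10 and 1.63 CPM in knockout libraries under abemaciclib, against 2.80, 3.07, 3.27 and 2.60 CPM in control libraries under abemaciclib. Under vehicle it had 17.4, 14.6, 16.5 and 17.3 CPM in knockout libraries, against 16.7, 18.0, 17.0 and 17.5 CPM in control libraries. Thus knockout and control libraries of KIF4A were apart under abemaciclib and overlapped under vehicle. KIF14 had 1.65, 0.885, 2.21 and 2.18 CPM in knockout libraries under abemaciclib, against 3.74, 3.24, 3.48 and 3.37 CPM in control libraries under abemaciclib. Under vehicle it had 14.3, 15.1, 13.7 and 12.1 CPM in knockout libraries, against 16.8, 16.2, 16.4 and 16.03 CPM in control libraries. Knockout libraries of KIF14 lay below control libraries under both treatments. A single read was worth 0.0836 to 0.101 CPM, so these abemaciclib values rest on few reads, and the size of the interaction depended on the pseudocount. With a pseudocount of 5 in place of 1 the interaction of KIF4A was -0.25 (limma adjusted p = 0.0535), that of KIF2C -0.08 (limma adjusted p = 0.688), that of KIF14 -0.15 (limma adjusted p = 0.365) and that of KIF15 -0.15 (limma adjusted p = 0.389), so that these 4 calls were lost.

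Some interaction calls also changed when 1 library was left out. KIF14 (-0.50, limma adjusted p = 0.0465) lost its call when any library was left out other than knockout vehicle replicate 4 and knockout abemaciclib replicates 3 and 4, with values of -0.53 to -0.33 and limma adjusted p of 0.0502 to 0.121. KIF15 (-0.46, limma adjusted p = 0.0381) lost it in 9 of 16 such fits (knockout vehicle replicates 1, 2 and 4, control vehicle replicates 2 and 3, knockout abemaciclib replicates 1 and 4, control abemaciclib replicates 2 and 3), with values of -0.48 to -0.36 and limma adjusted p of 0.0504 to 0.102. KIF16B (-0.33, limma adjusted p = 0.0428) lost it without any library other than knockout vehicle replicate 2, control vehicle replicate 3 and control abemaciclib replicates 3 and 4, with values of -0.34 to -0.26 and limma adjusted p of 0.0556 to 0.108. KIF1C, at -0.29 (SE 0.0759, limma adjusted p = 0.0104), kept its call in all 16 such fits and lost it with no filter (limma adjusted p = 0.0873) or no trend (limma adjusted p = 0.0686). KIF23 (-0.32, limma adjusted p = 0.0525) was called without control vehicle replicate 3, knockout abemaciclib replicates 2 or 3, or control abemaciclib replicates 2 or 4, at -0.37 to -0.36 with limma adjusted p of 0.025 to 0.0393. KIF13A (-0.28, limma adjusted p = 0.0673) was called without control vehicle replicate 2 or control abemaciclib replicates 2 or 4, at -0.33 to -0.32 with limma adjusted p of 0.0263 to 0.0463. KIFC3 (0.29, limma adjusted p = 0.0686) was called without control vehicle replicate 4 or control abemaciclib replicates 1 or 4, at 0.33 to 0.35 with limma adjusted p of 0.028 to 0.0457.

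Among the 5 tested other kinesins, 2 were called lower under abemaciclib in knockout cells and 3 in control cells by limma, against 27.4% and 31.1% of all tested genes. Between knockout and control cells 0 were called by limma under either treatment, and at an unadjusted p under 0.05 there were 1 higher under abemaciclib and 2 higher under vehicle, beside 24.7% and 29.5% of all tested genes. In the interaction 0 were called, with 1 higher at an unadjusted p under 0.05, beside 9.83% of all tested genes. KIF24, a centriolar depolymerase that restrains cilium formation, had 1.28, 0.531, 1.87 and 0.817 CPM in knockout libraries under abemaciclib, against 2.67, 2.39, 2.42 and 2.03 CPM under vehicle. Control libraries had 1.03, 1.58, 2.12 and 1.54 CPM under abemaciclib, against 3.23, 3.47, 3.33 and 2.26 CPM under vehicle. Abemaciclib libraries lay below vehicle libraries in both genotypes, with log2 fold changes of -0.71 in knockout cells (SE 0.156, limma adjusted p = 0.000424) and -0.67 in control cells (SE 0.156, limma adjusted p = 0.000497). Knockout and control KIF24 groups overlapped under both treatments, at -0.30 under abemaciclib (limma adjusted p = 0.155) and -0.26 under vehicle (limma adjusted p = 0.195). Without knockout abemaciclib replicate 3 KIF24 was called lower in knockout cells under abemaciclib, at -0.46 with a limma adjusted p of 0.0268.

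KIF2A, a depolymerase of spindle poles and neurites, averaged 32.1 ± 1.82 CPM in knockout cells under abemaciclib against 38.7 ± 3.04 CPM under vehicle (SD, n = 4 each). In control cells it averaged 33.7 ± 2.98 CPM under abemaciclib against 41.0 ± 1.46 CPM under vehicle (SD, n = 4 each). Both changes were called, at -0.26 in knockout cells (limma adjusted p = 0.000757) and -0.28 in control cells (limma adjusted p = 0.000269). KIF2A gave whole read numbers in only 5 libraries, and 8.97% of its exon bases overlap IPO11 on the same strand.

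KIF9, a motor of motile cilia and sperm flagella, had 9.24, 8.06, 8.75 and 8.26 CPM in knockout libraries under abemaciclib, against 8.53, 9.78, 8.96 and 9.24 CPM under vehicle, which overlapped (log2 fold change -0.08, limma adjusted p = 0.527). In control cells it had 6.63, 8.15, 8.84 and 6.45 CPM under abemaciclib, against 8.98, 9.92, 9.48 and 10.9 CPM under vehicle. All control libraries under abemaciclib lay below those under vehicle (log2 fold change -0.35, SE 0.0926, limma adjusted p = 0.00176). The interaction of KIF9 was not called (0.27, limma adjusted p = 0.201). KIF27, a motor tied to motile cilia, had 2.38, 2.44, 2.93 and 1.91 CPM in knockout libraries under abemaciclib and 3.60, 1.80, 2.17 and 1.88 CPM in control libraries under abemaciclib. Under vehicle it had 3.68, 2.39, 2.87 and 2.31 CPM in knockout libraries and 1.92, 1.44, 2.47 and 2.36 CPM in control libraries. These groups overlapped throughout, and no difference of KIF27 was called. KIF27 gave whole read numbers in only 8 libraries, so part of its reads was shared between features. KIF7, a regulator of Hedgehog signaling at the ciliary tip, had a knockout minus control value of 0.30 under abemaciclib (limma adjusted p = 0.0868) and 0.28 under vehicle (limma adjusted p = 0.102). KIF7 was called without knockout abemaciclib replicate 3 under abemaciclib (0.41, limma adjusted p = 0.0263) and without control vehicle replicate 4 under vehicle (0.36, limma adjusted p = 0.0469). Opposite-strand genes cover 17.9% of KIF9, 15.4% of KIF27 and 11.8% of KIF7 exon bases.

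Genes that work with mitotic kinesins were called lower as well. Of 16 tested partner genes (centralspindlin, chromosomal passenger, spindle assembly and cytokinesis genes, with CENPE), 16 were lower under abemaciclib in knockout cells (27.4% of all tested genes) and 16 in control cells (31.1% of all tested genes), with median log2 fold changes of -2.13 and -1.76. In knockout cells 15 were lower than in control cells under abemaciclib (median -0.53), beside 11.3% of all tested genes, and 12 under vehicle (median -0.30), beside 13.1%. AURKB, the kinase that KIF20A carries to the central spindle, changed under abemaciclib by -4.14 in knockout cells (limma adjusted p = 2.71e-28) and -3.53 in control cells (limma adjusted p = 3.04e-26). BIRC5, another subunit of the passenger complex, changed by -3.37 in knockout cells and -2.84 in control cells, and NUSAP1, a spindle-bundling protein, by -3.39 in knockout cells and -2.83 in control cells. CENPE, the kinesin that carries chromosomes to the plate, averaged 10.1 CPM in knockout and 14.9 CPM in control cells under abemaciclib, and 33.9 CPM in knockout and 32.0 CPM in control cells under vehicle. The interaction was called lower by limma for 8 of the 16 partners and higher for 0 (also 0 at an unadjusted p under 0.05), beside 6.16% of all tested genes lower and 4.68% higher. The lower ones included AURKB (-0.61, limma adjusted p = 0.00106), CENPE (-0.59, limma adjusted p = 0.000158), NUSAP1 (-0.56, limma adjusted p = 0.000553) and CEP55, a midbody protein (-0.54, limma adjusted p = 0.000177).

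Partners of transport kinesins moved less. Of 20 tested cargo adaptors and light chains, 3 were higher and 4 lower under abemaciclib in knockout cells (median log2 fold change -0.02), and 8 higher and 4 lower in control cells (median 0.10). The shares of all tested genes in the same comparisons were 11% higher with 27.4% lower for knockout cells, and 19.6% higher with 31.1% lower for control cells. In knockout cells 7 were higher and 2 lower than in control cells under abemaciclib (median 0.09), beside 18.6% and 11.3% of all tested genes, and 9 higher and 1 lower under vehicle (median 0.15), beside 24.6% and 13.1%. The scaffold MAPK8IP1, which links kinesin light chains to cargo, was higher in knockout cells by 0.33 under abemaciclib (limma adjusted p = 0.00369) and 0.65 under vehicle (limma adjusted p = 1.91e-07). SYBU, a syntaxin adaptor for KIF5B, was higher by 0.46 under abemaciclib (limma adjusted p = 0.0156) and 0.52 under vehicle (limma adjusted p = 0.00493). The largest called changes under abemaciclib in this list were rises in each genotype. MAPK8IP1 rose by 0.50 in control cells (limma adjusted p = 8.14e-06) and was not called in knockout cells (0.17, limma adjusted p = 0.111). MAPK8IP3 rose by 0.47 in control cells (limma adjusted p = 1.32e-05) and by 0.35 in knockout cells (limma adjusted p = 0.000852). KLC3, a light chain, was lower under abemaciclib by -0.34 in knockout cells (limma adjusted p = 0.00318) and -0.32 in control cells (limma adjusted p = 0.00351). In the interaction limma called 0 of these genes, and at an unadjusted p under 0.05 it gave 5 lower and 0 higher, beside 13.6% and 9.83% of all tested genes.

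Cytoplasmic dynein and dynactin, which run to microtubule minus ends, were called in both directions, in shares mostly near those of all tested genes. Of 23 tested genes, 2 were higher and 5 lower under abemaciclib in knockout cells (median log2 fold change -0.02), and 7 higher and 6 lower in control cells (median 0.05), beside the same shares of all tested genes as above. NDE1, a dynein regulator with a role in mitosis, was lowest, at -0.72 in knockout cells (limma adjusted p = 8.76e-09) and -0.65 in control cells (limma adjusted p = 4.07e-08). In knockout cells 6 were higher and 2 lower than in control cells under abemaciclib (median 0.06), beside 18.6% and 11.3% of all tested genes, and 6 higher and 3 lower under vehicle (median 0.05), beside 24.6% and 13.1%. BICD1, a cargo adaptor of dynein, was higher in knockout cells by 0.51 under abemaciclib (limma adjusted p = 0.000235) and 0.51 under vehicle (limma adjusted p = 0.000173). DYNC1H1, the dynein heavy chain, was higher in knockout cells by 0.16 under abemaciclib (limma adjusted p = 0.00615) and 0.38 under vehicle (limma adjusted p = 2.56e-08). In the interaction 3 were called higher and 2 lower, beside 4.68% and 6.16% of all tested genes.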

How the data were processed

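Per the labels' protocols, a commercial service extracted RNA and made cDNA libraries by tagmentation. Per the submitters' processing notes, STAR 2.7.11, SAMtools 1.22.1, MultiQC 1.32 and featureCounts of Subread 2.1.1 were used with GRCh38. The annotation release and strand setting are not stated in these sources. The values deposited by the authors are CPM, summing to 1000000 in each library. From their smallest steps 70.2 to 71.8% of values were whole reads within 0.02 reads, and 5270 of 16218 tested genes (32.5%) were whole in all libraries, too few for a count test. A member whole in 8 or fewer libraries was named as sharing reads.

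For 16218 genes that reached 1 CPM in 4 or more libraries, log2(CPM + 1) was fitted in 1 limma 3.58.1 model of 4 group means (R 4.3.3, empirical Bayes with trend, two-sided, Benjamini-Hochberg adjustment over all tested genes). The fit was tested on simulated data. The 5 comparisons were the effect of knockout under each treatment, that of abemaciclib in each genotype, and the interaction. Members, lists and tests were chosen with earlier results of these data known. Values of every library were given for the 3 called members of largest change per class and comparison, the 3 other kinesins of largest change and 6 called in the interaction. KIF22 was added after its values were seen. Up to 4 called genes per partner list and comparison were named. Gene positions came from GENCODE 29 (42 of 42 members matched), and promoter windows from RefSeq. Alternatives were 9 settings and the fit without each of 16 libraries.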

Additional observations from a re-analysis of the deposited data

Results flagged for a closer look

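Some kinesin values stood apart from the other 3 libraries of their group by Dixon's test at the 95% level. This was found in 6 of the 128 groups of 4 examined, and chance gives about 1 in 20, or 6.4 groups. In knockout cells under vehicle, KIF18A was 19.97 CPM in replicate 3 against 13.96 to 14.6 in the others, KIFC2 was 30.4 CPM in replicate 2 against 27.8 in each of the others, and the sum of the mitotic kinesins was 438.6 CPM in replicate 2 against 448 to 449. In control cells under abemaciclib, replicate 1 was low for KIF18B, at 0.934 CPM against 2.01 to 2.12, and high for KIF5B, at 129.6 CPM against 113 to 115. In control cells under vehicle, KIF2A was 38.8 CPM in replicate 4 against 41.6 to 41.8.

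By limma's interaction term at an adjusted p under 0.05, the response to abemaciclib was called different between knockout and control cells for 9 kinesins. All 9 values were negative, beside 6.16% of all tested genes called lower and 4.68% higher. Over 24 refits, with other settings or 1 library left out, the calls most often lost were KIF14 (in 18), KIF16B (in 15) and KIF15 (in 13). The partner, dynein and dynactin genes below were not examined in these refits. The log2 interaction was -0.79 for KIF20A, -0.64 for KIF4A, -0.50 for KIF14, -0.48 for KIF2C, -0.48 for KIFC1, -0.46 for KIF15 and -0.43 for KIF20B among mitotic members. It was -0.33 for KIF16B and -0.29 for KIF1C among transport members. Among partner genes it was -0.61 for AURKB, -0.59 for CENPE, -0.56 for NUSAP1, -0.54 for CEP55, -0.54 for BIRC5, -0.44 for CIT, -0.34 for ANLN and -0.28 for CDCA8. Among dynein and dynactin genes it was -0.27 for DYNC1LI2, -0.22 for DYNC1H1, 0.20 for DYNLL1, 0.23 for DYNLT1 and 0.33 for DCTN3.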

How the results depend on the processing

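Of 145 kinesin results (29 members in 5 comparisons), 117 kept their call under the 9 other settings and without each library. No direction of a called result turned. Across 3576 refitted values 78 lost a call and 37 gained one. The counts of mitotic kinesins lower under abemaciclib were 12 in all settings run in both genotypes. Without 1 library, mitotic members called lower numbered 5 to 8 (7 with all libraries) for knockout under vehicle and 5 to 8 (7) for the interaction. Under the 9 other settings they numbered 5 to 9 for knockout under vehicle, with KIF18A and KIF20B lost with no filter and KIF14 and KIF18B gained with a pseudocount of 5 or only the groups compared. For the interaction they numbered 3 to 8 under the other settings that give one. There KIF14 lost its call in 5 settings, KIF15 in 4, KIF16B in 3, KIF1C and KIF2C in 2 each and KIF4A in 1, while KIF23 gained one with a pseudocount of 0.1 or a filter of 5 CPM and KIFC3 after either rescaling. Of other results, KIFC3 for abemaciclib in knockout cells was gained after either rescaling and KIF2A for knockout under vehicle after median-of-ratios rescaling. Without 1 library, transport members called lower numbered 0 to 1 (1) for knockout under vehicle and 1 to 2 (2) for knockout under abemaciclib. They numbered 1 to 3 (1) for abemaciclib in control cells, 1 to 2 (2) in knockout cells and 1 to 3 (2) for the interaction. In these fits, transport members called higher numbered 4 to 6 (6) for abemaciclib in control cells and 1 to 2 (2) in knockout cells. For the interaction they numbered 0 to 1 (0).

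With no filter on low values the transport members called lower were 0 for knockout under vehicle, 1 for knockout under abemaciclib, 1 for abemaciclib in knockout cells and 0 for the interaction, those called higher for abemaciclib in knockout cells were 1, and the mitotic members lower in the interaction were 4. With a pseudocount of 5 the last count was 3. With no trend, transport members for abemaciclib in knockout cells were 1 higher and 1 lower, and 0 were lower in the interaction. Median-of-ratios rescaling and quantile normalization each left 1 transport member lower for abemaciclib in knockout cells and gave 1 higher in the interaction, where quantile normalization left 1 lower. The cause was not tested.

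Among all tested genes, rescaling moved the balance of calls. For knockout under abemaciclib 3020 were higher and 1837 lower as deposited, and 2126 higher and 2408 lower after median-of-ratios rescaling. For knockout under vehicle 3987 were higher and 2121 lower as deposited, and 2825 and 2983 after rescaling. For abemaciclib in knockout cells 1780 were higher and 4444 lower as deposited, and 3173 and 2886 after rescaling. For abemaciclib in control cells 3181 were higher and 5039 lower as deposited, and 4166 and 4017 after rescaling. Quantile normalization moved the median of all genes by 0.102 for abemaciclib in knockout cells, and by under 0.1 elsewhere.

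Same-numbered libraries of different groups did not deviate together. Their correlations ran from -0.0367 to 0.0603 in 24 pairs, and the best match in another group had the same number in 14 of 48 cases and for no library in every other group. With the replicate block, 2 transport members in place of 1 were lower for abemaciclib in control cells, and 7 mitotic members were lower for knockout under vehicle, 11 for knockout under abemaciclib and 7 for the interaction, as without it. Members near 1 CPM rest on few reads, and their interactions depend on the pseudocount.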
